A study of Mus musculus with 4 samples.

Results

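Hox genes encode homeodomain transcription factors and lie in 4 genomic clusters, Hoxa to Hoxd, in mammals. Genes at the same place in different clusters are paralogues and carry the same number, from 1 at one end of a cluster to 13 at the other. During development low-numbered genes act towards the head and high-numbered genes towards the tail and the tip of the limbs, and adult cells of the limb are known to keep part of that positional code. The Hox genes were followed here in the gastrocnemius, the large calf muscle of the hindlimb, of 8-week-old C57BL/6J mice. WT mice were the controls for mice with a muscle-specific knockout of Fundc1 (Fundc1-MKO), with 2 biological replicates in each group. How the knockout was driven is not stated in the labels. FUNDC1 is an outer mitochondrial membrane protein known as a mitophagy receptor. The members were all rows of the deposited gene table whose gene column is a single Hox symbol: 40 of 23480 single-gene rows, covering 36 of the 39 Hox genes annotated in GENCODE M21. Hoxa5, Hoxa6 and Hoxb5 appeared only in rows that name several genes.

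The table holds for every gene a single FPKM in each group, a fragment count divided by transcript length and library size, with an interval set by the authors' software. Single animals have no value in it, which leaves their spread and the sequencing depth unknown. Levels of different genes can be set side by side because FPKM is scaled to transcript length. A gene is called expressed below at 1 FPKM or more in both groups, and higher or lower between groups only at q under 0.05 in the authors' deposited table. Fundc1 itself, on chromosome X from 17555602 to 17572334 (mm10), stood at 20.1 FPKM in WT and 4.23 in Fundc1-MKO, with q = 0.00338 in the authors' deposited table. The tissue label was checked against myofibre markers: Mylpf, a fast myosin light chain, was at 9823 and 10437 FPKM, while Ckm, Acta1, Myh4, Tnnt3 and Atp2a1 are marked HIDATA in the status column and have no usable value.

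In calf muscle of both genotypes the Hox genes at 1 FPKM or more lay in clusters A, C and D, and the highest sums were those of paralogue groups 8 to 10. Of 36 Hox symbols 15 were expressed in both groups, which is 41.7%, beside 44.6% of all 23137 single-gene symbols. They were 6 of 9 symbols of cluster A, 5 of 9 of cluster C, 4 of 9 of cluster D and 0 of 9 of cluster B. Hoxa5, Hoxa6 and Hoxb5, which have no row of their own, are in none of these counts. No symbol reached 1 FPKM in one group alone. Another 4 symbols (Hoxc12, Hoxd1, Hoxd12 and Hoxd13) were listed at 0 in both groups. The genes nearest to the limit were Hoxd4 (1.28 and 1.36 FPKM in WT and Fundc1-MKO) and Hoxa11 (1.34 and 1.22) just inside it. Hoxc5 (0.800 and 0.756) and Hoxb7 (0.632 and 0.773) lay just outside. Hoxa11 shares its locus with Hoxa11os, a non-coding gene opposite to it, and their reads cannot be told apart where both overlap.

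**Figure D1:**
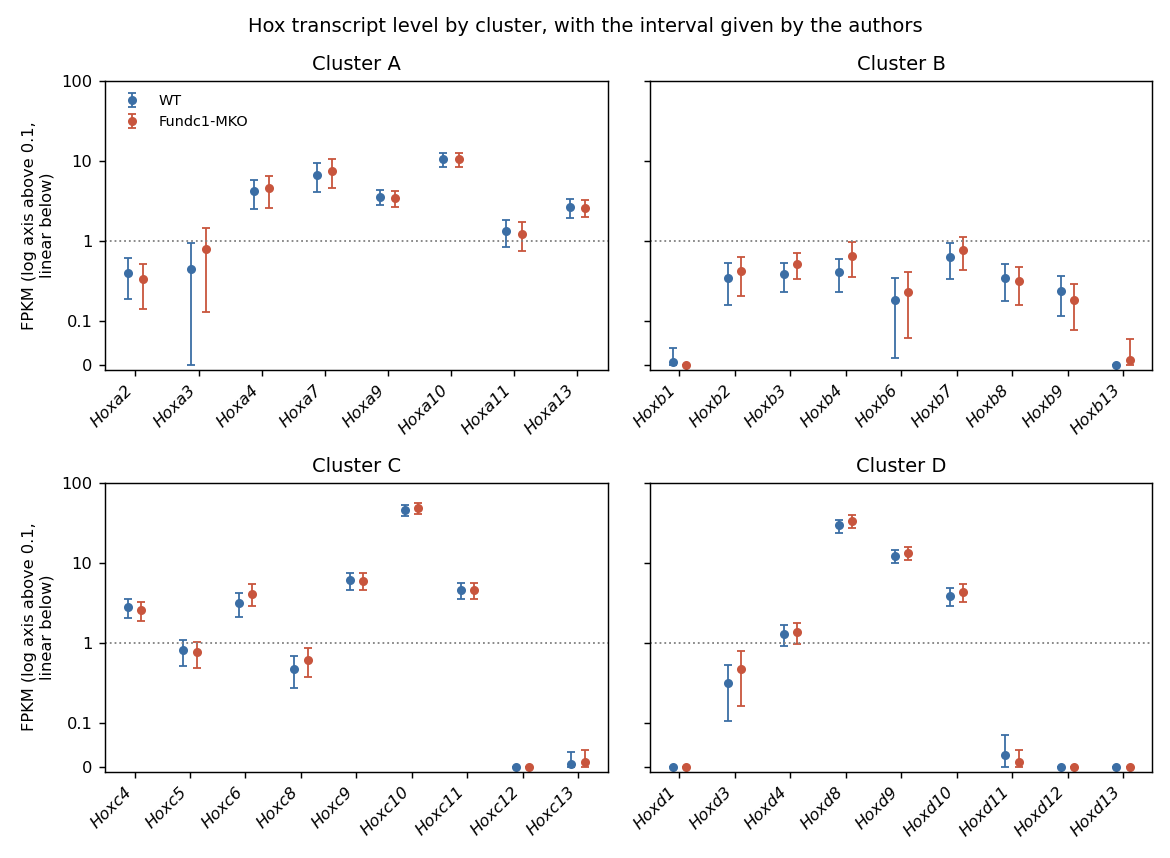
FPKM (y axis, logarithmic above 0.1 and linear below) of the Hox symbols reported here, by cluster and paralogue number, in WT (blue) and Fundc1-MKO (red); bars are the interval given by the authors and the dotted line marks 1 FPKM. Every cluster B gene drawn lies under the line, and the highest points are Hoxc10 (45.5 and 48.6 FPKM) and Hoxd8 (29.2 and 33.1 FPKM).

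Hoxc10 had the highest level of all Hox genes in both groups. In mouse and chick embryos Hoxc10 is known for expression in the hindlimb and not the forelimb, and the group 10 genes pattern the upper limb segment. Its row (XLOC_007797) spans chromosome 15 from 102966796 to 102971897 on the plus strand (mm10). It stood at 45.5 FPKM in WT (interval 38.0 to 52.9) and 48.6 in Fundc1-MKO (40.7 to 56.5). That level lay above 87.8% of the 12490 single-gene symbols tested by the authors in WT and above 88.5% of them in Fundc1-MKO. Its paralogue Hoxa10 was at 10.5 FPKM in both groups, 4.33 and 4.64 times lower than Hoxc10, and Hoxd10 was at 3.86 and 4.33 FPKM. The intervals of these 3 paralogues did not overlap in either group, so the order Hoxc10, Hoxa10, Hoxd10 was the same in WT and Fundc1-MKO.

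Hoxd8 came second and stood 61.8 and 54.1 times above its paralogue Hoxc8. Its row spans chromosome 2 from 74702995 to 74707932 on the plus strand. Hoxd8 was at 29.2 FPKM in WT (interval 23.8 to 34.6) and 33.1 in Fundc1-MKO (27.2 to 39.0). Hoxc8 was at 0.473 and 0.612 FPKM, and Hoxb8 at 0.344 and 0.316. Group 8 thus owed nearly all of its signal to the cluster D gene, whereas group 10 owed most of it to the cluster C gene.

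Cluster D peaked at Hoxd8, fell off sharply towards Hoxd4 and fell in smaller steps through Hoxd9 to Hoxd10. From the low-numbered end, Hoxd1 was listed at 0, Hoxd3 was at 0.317 FPKM in WT and 0.475 in Fundc1-MKO, and Hoxd4 at 1.28 and 1.36. Hoxd8 followed, then Hoxd9 at 12.2 and 13.2 FPKM and Hoxd10 at 3.86 and 4.33. Beyond Hoxd10 levels were at or near 0: Hoxd11, which acts with Hoxa11 in patterning the lower limb segment in mice, was at 0.0271 and 0.0105 FPKM, and Hoxd12 and Hoxd13 were listed at 0 in both groups, which at unknown depth does not show absence. Hoxd11 and Hoxd10 start 12333 bp apart. Hoxd13 is a gene of digit development.

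The start regions of 3 genes of this cluster are shown because they span its range, from the highest level through an intermediate one to a listed 0. Each is 250 bases before to 50 after a RefSeq start (GRCm38.p6, plus strand), written 5′ to 3′ with every CpG in capitals. The windows are chr2:74704365-74704664 for Hoxd8, chr2:74691641-74691940 for Hoxd10 and chr2:74667975-74668274 for Hoxd13. The Hoxd8 row in the table begins before the RefSeq start and lists several starts, so its window covers one of them.
Hoxd8: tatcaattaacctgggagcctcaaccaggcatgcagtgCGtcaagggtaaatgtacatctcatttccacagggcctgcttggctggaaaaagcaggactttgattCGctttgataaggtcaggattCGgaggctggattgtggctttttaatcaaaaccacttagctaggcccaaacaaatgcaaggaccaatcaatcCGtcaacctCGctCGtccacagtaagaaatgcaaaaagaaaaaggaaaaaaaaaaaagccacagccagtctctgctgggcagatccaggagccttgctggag
Hoxd10: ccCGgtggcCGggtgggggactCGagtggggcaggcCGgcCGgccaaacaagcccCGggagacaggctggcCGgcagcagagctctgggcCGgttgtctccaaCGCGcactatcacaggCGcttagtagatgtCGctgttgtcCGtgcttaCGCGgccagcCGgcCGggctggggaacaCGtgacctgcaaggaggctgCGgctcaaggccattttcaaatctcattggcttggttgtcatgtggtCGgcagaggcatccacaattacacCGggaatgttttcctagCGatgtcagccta
Hoxd13: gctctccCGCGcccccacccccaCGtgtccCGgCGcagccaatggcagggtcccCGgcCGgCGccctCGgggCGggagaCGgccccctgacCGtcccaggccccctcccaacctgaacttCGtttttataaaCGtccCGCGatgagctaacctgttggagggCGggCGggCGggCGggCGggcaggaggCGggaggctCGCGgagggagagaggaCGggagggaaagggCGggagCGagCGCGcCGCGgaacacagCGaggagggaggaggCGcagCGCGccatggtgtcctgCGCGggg
The Hoxd8 window holds 6 CpG, the Hoxd10 window 22 and the Hoxd13 window 37, beside a median of 7 over all 32851 RefSeq windows, of which 43.6%, 76.9% and 94.4% hold fewer. Among these 3 genes the one listed at 0 had the most CpG, but the window of Hoxd12, also listed at 0, holds 13, fewer than that of Hoxd10. Windows were found for 22 Hox genes, and 20 of these had a row of their own in the table: 10 expressed genes with 4 to 45 CpG (median 12 over 11 windows) and 10 others with 4 to 37 (median 14 over 11 windows). The expressed genes Hoxc10, Hoxc11, Hoxc9, Hoxc6 and Hoxa4 had no window, so the highest Hox gene is not covered. Among the genes with a window the ranges overlap nearly fully, so CpG number did not separate the expressed ones from the others there.

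Cluster C was expressed around Hoxc10 and again at its low-numbered end. Hoxc11, the other gene of this cluster known from the hindlimb, was at 4.51 FPKM in WT and 4.54 in Fundc1-MKO, about 10 times below Hoxc10 (0.0992 and 0.0933 of its level). Hoxc9 was at 6.03 and 5.98 FPKM. Between Hoxc9 and Hoxc6 the level dropped to 0.473 and 0.612 FPKM at Hoxc8, and it stood at 3.16 and 4.12 FPKM at Hoxc6, 0.800 and 0.756 at Hoxc5 and 2.79 and 2.55 at Hoxc4. At the other end Hoxc12 was listed at 0 and Hoxc13, a gene of hair and nail, was at 0.00743 and 0.0115 FPKM. The levels along the cluster therefore did not follow gene order.

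By single-symbol rows, cluster A was expressed from Hoxa4 to Hoxa13 and was the sole source of group 13 signal at 1 FPKM or more. Hoxa10 was its highest gene, followed by Hoxa7 at 6.76 FPKM in WT and 7.55 in Fundc1-MKO. Hoxa7 shares its row with Mira, a non-coding transcript that the table's short name adds. Hoxa4 was at 4.18 and 4.58 FPKM, Hoxa9 at 3.59 and 3.43 and Hoxa11, whose locus is shared with Hoxa11os, at 1.34 and 1.22. Hoxa13, which patterns the hand and foot in mice, was at 2.64 FPKM in WT (interval 1.95 to 3.33) and 2.61 in Fundc1-MKO (1.99 to 3.24), above Hoxa11 in both groups with no overlap of the intervals. Hoxa2, a gene of hindbrain and face patterning, was at 0.399 FPKM in WT and 0.331 in Fundc1-MKO. A merged row for Hoxa3, Hoxa5 and Hoxa6 was at 3.66 and 3.43 FPKM. The share of each gene in it cannot be read from the table, so whether Hoxa3 reaches 1 FPKM is not known.

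Cluster B was weak throughout. Its highest symbol, Hoxb7, was at 0.632 FPKM in WT and 0.773 in Fundc1-MKO. Hoxb2, Hoxb3, Hoxb4 and Hoxb8 lay between 0.344 and 0.413 FPKM in WT and between 0.316 and 0.656 in Fundc1-MKO. Hoxb9 was at 0.239 and 0.185 FPKM, and Hoxb1 and Hoxb13 were under 0.02 FPKM in both groups. A merged row for Hoxb5 and Hoxb6 was at 0.640 and 0.750 FPKM. Together the 9 cluster B symbols made up 1.78% of the summed Hox FPKM in WT and 2.02% in Fundc1-MKO.

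By paralogue group, group 10 held 41.9% of the summed Hox FPKM in WT and 41.2% in Fundc1-MKO, group 8 held 21.1% and 22.1%, and group 9 held 15.5% and 14.8%. The sums were 143 FPKM in WT and 154 in Fundc1-MKO, counting 1 row per symbol and no merged row. Groups 1 to 3, which pattern the hindbrain and neck, had 0 of 8 symbols expressed by single-symbol rows and 1.42% and 1.69% of the sum. For Hoxa3 this rests on a row that may not hold the coding transcript. Its merged row with Hoxa5 and Hoxa6, at 3.66 and 3.43 FPKM, is not counted. Groups 4 to 8 had 6 of 12 symbols expressed, with Hoxa5, Hoxa6 and Hoxb5 not counted, and groups 9 to 13 had 9 of 16. Clusters C, D and A gave 44.3%, 32.9% and 21.02% of the sum in WT and 43.7%, 34.1% and 20.2% in Fundc1-MKO.

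**Figure D2:**
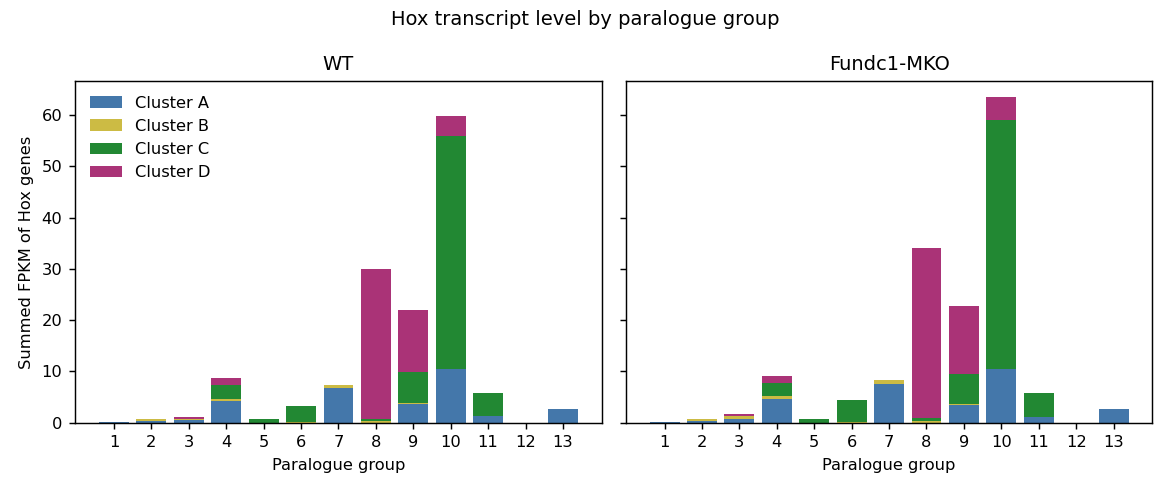
Summed FPKM of the Hox symbols (y axis) by paralogue group (x axis), stacked by cluster, in WT (left) and Fundc1-MKO (right), with 1 row per symbol. Group 10 is the tallest bar in both panels (59.8 and 63.4 FPKM), mostly from cluster C, and group 8 is nearly all from cluster D.

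The order of the 15 expressed genes was close to identical in both groups. In WT it ran Hoxc10, Hoxd8, Hoxd9, Hoxa10, Hoxa7, Hoxc9, Hoxc11, Hoxa4, Hoxd10, Hoxa9, Hoxc6, Hoxc4, Hoxa13, Hoxa11, Hoxd4, and the first 6 held the same ranks in Fundc1-MKO. Neighbours in this order had intervals apart at 3 steps, in both groups: Hoxc10 above Hoxd8, Hoxd8 above Hoxd9 (2.40 and 2.50 times) and Hoxa13 above Hoxa11 (1.97 and 2.13 times). At every other step the intervals of the neighbours overlapped, so those neighbours were not separated. Within paralogue groups 9 to 11 all 7 pairs of expressed genes had intervals apart in both groups. In group 9 Hoxd9 exceeded Hoxc9, which exceeded Hoxa9, and in group 11 Hoxc11 exceeded Hoxa11 by 3.37 and 3.71 times. Comparisons with Hoxa11 carry the limit of its locus shared with Hoxa11os. In group 4 Hoxa4 and Hoxc4 overlapped, and both were above Hoxd4.

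Some rows that carry a Hox symbol may not hold the coding transcript. Hoxa3, Hoxb4, Hoxd4 and Hoxd8 each had a second row, and Hoxb6 had a single row beside the merged one. Row numbers in the table run along 1 strand at a time: for all 4 second rows, for the higher Hoxa3 row and for the Hoxb6 row, the 20 nearest named rows by row number were all annotated on the strand opposite to the Hox gene. For the higher row of each other symbol in clusters A, B and D none of the 20 was, and in cluster C 3 to 5 were. The strand of a row is not in the table, and whether these rows hold antisense RNA was not tested. The second Hoxd8 row was at 0.817 FPKM in WT and 1.07 in Fundc1-MKO, 2.79% and 3.22% of the main row. The second rows of Hoxb4, at 0.244 and 0.559 FPKM, and of Hoxd4, at 0.239 and 0.112, had intervals that reached 0 in both groups.

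No Hox gene was called higher or lower in Fundc1-MKO muscle. The authors tested 28 of the 40 Hox rows (25 symbols), and by its q (under 0.05) the authors' deposited table calls 0 of them, where 3.17% of all 14134 tested rows were called. The other 12 rows had at most 0.239 FPKM in either group and were not tested. The intervals of both groups lay apart in 0 of the 28, beside 0.715% of all tested rows. Over the 15 expressed symbols the ratio of Fundc1-MKO over WT ran from 0.915 to 1.30, and the log2 ratio of each had an SE of 0.17 to 0.43, derived from the authors' intervals. Each of the 15 log2 ratios lay within 2 of its own SE, and all but that of Hoxc6 lay within 1. At this precision small differences cannot be seen: for Hoxc10 the log2 ratio was 0.10 with an SE of 0.17, for Hoxd8 0.18 with an SE of 0.18 and for Hoxa10 0.00 with an SE of 0.20.

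By the raw p of the authors' deposited table (under 0.05), 4 of the 28 Hox rows passed, 14.3%, beside 13.7% of all tested rows, so the share was near the background. All 4 were higher in Fundc1-MKO, a direction that 4.68% of all tested rows had at that p. Hoxb4, a gene known for its role in blood stem cells, was at 0.413 FPKM in WT (interval 0.227 to 0.599) and 0.656 in Fundc1-MKO (0.352 to 0.959). Its log2 ratio was 0.67 with an SE of 0.47, where the authors' deposited table gives p = 0.0042 and q = 0.0906, and it was the sole Hox row under q of 0.1, which 4.92% of all tested rows met. For the second Hoxb4 row the authors' deposited table gives p = 0.033 and q = 0.292. Both groups' intervals overlapped for both Hoxb4 rows.

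Hoxb3, the neighbour of Hoxb4, was at 0.383 FPKM in WT and 0.514 in Fundc1-MKO, where the authors' deposited table gives p = 0.0285 and q = 0.271. Hoxc6, which acts in the thoracic and forelimb region of the mouse embryo, was at 3.16 FPKM in WT (interval 2.12 to 4.21) and 4.12 in Fundc1-MKO (2.84 to 5.40), where the authors' deposited table gives p = 0.0209 and q = 0.231. The intervals of both groups overlapped for each. The authors' p is smaller than a normal reading of their test statistic: read that way, a choice made after seeing the data, Hoxb4 had p = 0.153, Hoxc6 p = 0.245 and Hoxb3 p = 0.270. By that reading 0 Hox rows had a p under 0.05, beside 1.68% of all tested rows.

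**Figure D3:**
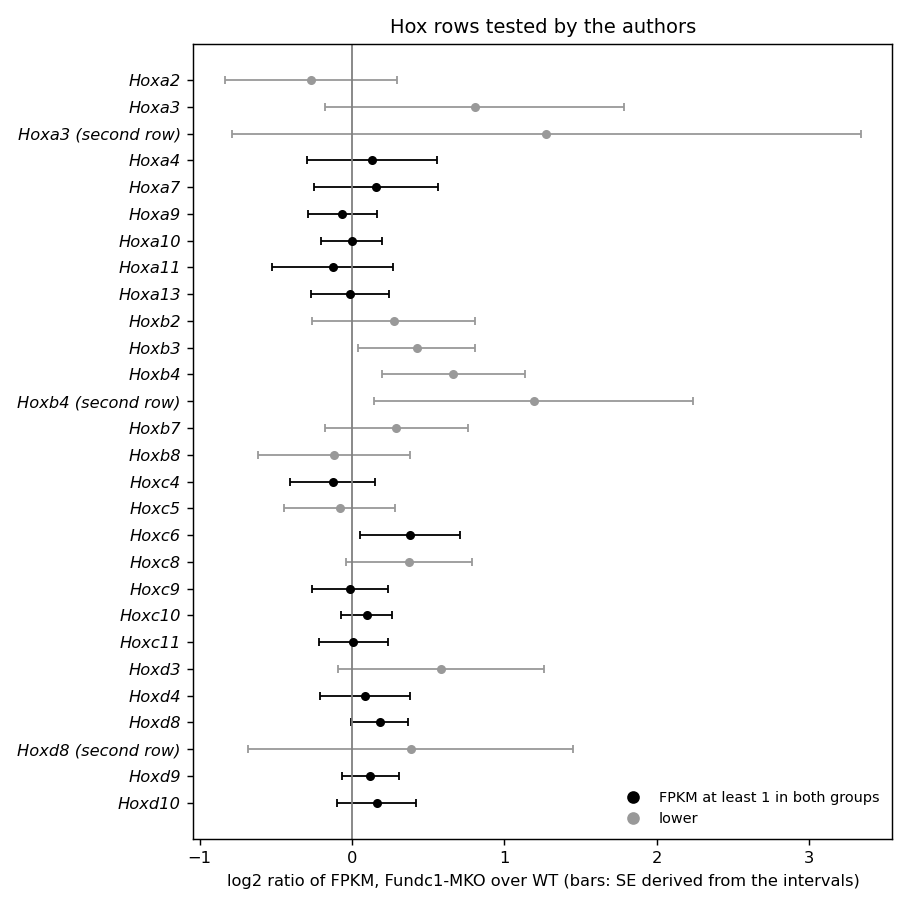
The log2 ratio of FPKM in Fundc1-MKO over WT (x axis) of the 28 Hox rows tested by the authors, with bars of 1 SE derived from the authors' intervals; black points are genes at 1 FPKM or more in both groups, grey points lower ones. Black points lie between -0.13 and 0.38, and no row lies more than 2 SE from 0.

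Slightly more Hox genes were at higher than at lower FPKM in Fundc1-MKO, without any call. Of the 15 expressed symbols 9 were higher and 6 lower, 60.0% higher beside 43.5% of the 10323 tested symbols at that level. When both groups were scaled to equal medians, a shift of 0.03 on the log2 scale, 12 of 15 (80.0%) Hox genes and 54.4% of those tested symbols were higher. The 3 that changed side, Hoxa10, Hoxc9 and Hoxa13, had log2 ratios of at most 0.0147 in size as deposited and SEs of 0.20, 0.25 and 0.26. The median log2 ratio of FPKM + 1 was 0.05 for the Hox genes and -0.01 for all tested symbols at that level. All 5 tested symbols of cluster D were at higher FPKM in Fundc1-MKO, as were 4 of 5 in cluster B, 4 of 7 in cluster C and 3 of 8 in cluster A. These are counts of point values, and genes of 1 cluster share their locus.

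In the limb identity list the hindlimb gene Tbx4 was above the forelimb gene Tbx5, and no tested gene was called between groups. The authors tested 4 of its 8 genes, Tbx4, Tbx15, Tbx3 and Tbx2, and Pitx1, Isl1 and Tbx5 were among those not tested. Of the 4 tested genes 0 passed q and 0 the raw p (both under 0.05) of the authors' deposited table. Of all tested rows 3.17% passed q and 13.7% the raw p. Tbx4, the T-box gene of the hindlimb, was at 1.02 FPKM in WT and 0.975 in Fundc1-MKO, whereas Tbx5, its forelimb counterpart, was listed at 0 in WT and 0.00307 in Fundc1-MKO. Pitx1, a homeobox gene that specifies the hindlimb in embryos, was at 0.116 and 0.119 FPKM, and Isl1, which acts at the onset of hindlimb growth, at 0.148 and 0.0947. Tbx15, a T-box gene of glycolytic muscle fibres, had the highest level of the list, 57.2 and 59.1 FPKM, followed by Tbx3 at 2.31 and 2.67 and Tbx2 at 0.952 and 1.05.

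HOX proteins bind DNA together with homeodomain proteins of the TALE class, the PBX, MEIS and PKNOX proteins. Of 11 such genes, with the TGIF genes counted in, 7 were expressed. Of 9 tested, 0 passed q and 1 the raw p (both under 0.05) of the authors' deposited table. Of all tested rows 3.17% passed q and 13.7% the raw p. Pknox2 was the highest, at 21.3 FPKM in WT and 19.8 in Fundc1-MKO. Pbx2 was at 6.39 and 6.55 FPKM, Pknox1 at 2.83 and 2.95 and Meis1 at 1.40 and 1.26. Tgif1, a TALE repressor, was the gene with the low p, at 5.21 and 4.05 FPKM with q = 0.108 in the authors' deposited table. The median log2 ratio of FPKM + 1 over the 7 expressed genes was -0.08.

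**Figure D4:**
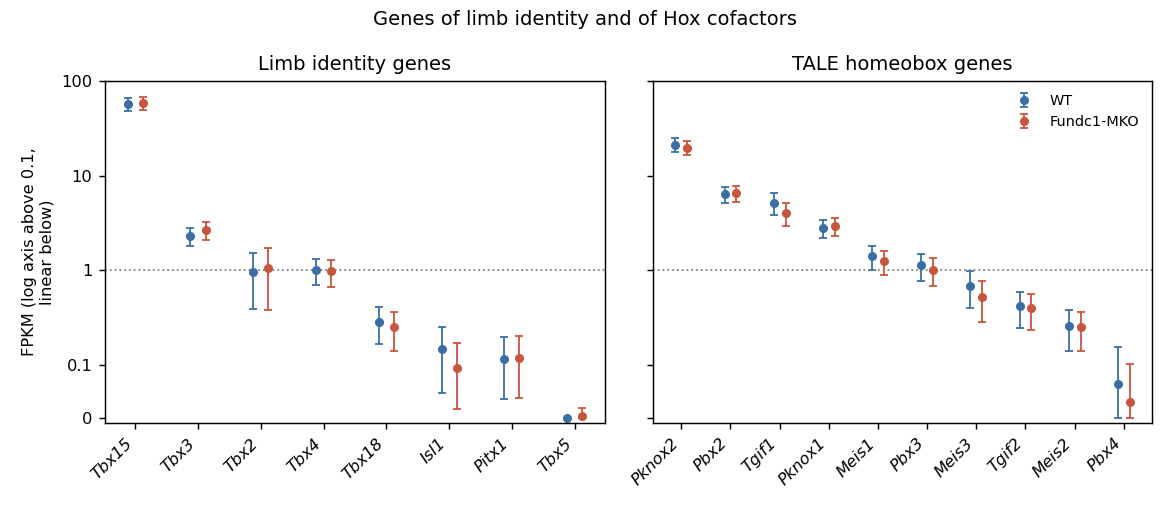
FPKM (y axis, logarithmic above 0.1 and linear below) of limb identity genes (left) and the TALE homeobox genes reported here (right) in WT (blue) and Fundc1-MKO (red), with the authors' intervals; the dotted line marks 1 FPKM. The intervals of both groups overlap for each gene drawn; Tbx4 lies near 1 FPKM, and Tbx5 is listed at 0 in WT.

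Other homeobox genes of muscle and limb reached levels like those of the higher Hox genes. Of 26 measured genes 13 were expressed and of 18 tested 0 passed q and 0 the raw p of the authors' deposited table. The shares over all tested rows were 3.17% by q and 13.7% by raw p. Lbx1, needed for muscle precursors to migrate into the limb, was at 29.1 FPKM in WT and 26.7 in Fundc1-MKO. Prrx1, a homeobox gene of limb connective tissue, was at 21.3 and 21.1 FPKM, and Zeb1 at 11.4 and 10.9. Hoxc10 was above these 3 genes in both groups, on the same FPKM scale.

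Non-coding genes inside the clusters were weak. Hotairm1, a long non-coding RNA of cluster A, was at 1.61 FPKM in WT and 1.23 in Fundc1-MKO, where its interval reached 0 (0 to 3.91). Hoxa11os, opposite to Hoxa11, was at 1.04 and 1.23. Hotairm1 and Hoxa11os had q above 0.6 in the authors' deposited table. Of the 2 tested genes of this list 0 passed its raw p, beside 13.7% of all tested rows. Hotair, from cluster C, was at 0.274 and 0.231 FPKM, and Hoxaas2 at 0.172 and 0.200. The library kit is not stated to keep strand, so reads of Hoxa11 and Hoxa11os cannot be told apart where both overlap. The 6 microRNA genes of this list that have a row of their own were listed at 0 in both groups, which at unknown depth does not show absence.

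No listed gene from the regions around the clusters and no Polycomb or Trithorax gene was called, beside 3.17% of all tested rows. The raw-p counts that follow stand beside 13.7% of all tested rows. Of 20 tested genes from those regions 0 passed q and 1 (Mtx2) the raw p of the authors' deposited table. Not all of them adjoin a cluster: Atp5g3 spans chromosome 2 from 73908447 to 73911326, and Hoxd13 starts at 74668310. Atp5g3 was at 954 FPKM in WT and 955 in Fundc1-MKO. Nfe2l1, Hnrnpa2b1 and Hnrnpa1 were at 260, 223 and 93.9 FPKM in WT and 247, 227 and 86.9 in Fundc1-MKO. Evx1 and Evx2, homeobox genes at the high-numbered ends of clusters A and D, were listed at 0. Of 30 tested Polycomb genes, which keep Hox genes silent, 0 passed q and 3 (Ezh2, Phf1 and Cbx2) the raw p of the authors' deposited table. The median log2 ratio of FPKM + 1 over the 26 expressed Polycomb genes was 0.01. Rbbp7, Rbbp4, Bmi1 and Pcgf5 had the highest levels, 51.8, 25.6, 21.9 and 17.7 FPKM in WT and 50.2, 25.5, 23.9 and 16.5 in Fundc1-MKO. Of 11 Trithorax and H3K27 demethylase genes, which keep them active, 0 passed q and 2 (Kdm6a and Kdm6b) the raw p of the authors' deposited table. Of these 11, 9 were at higher FPKM in Fundc1-MKO (81.8%, beside 43.5% of all tested symbols at 1 FPKM or more), and the median log2 ratio of FPKM + 1 was 0.04. Dpy30 was at 49.7 and 52.5 FPKM, and Kmt2a, a methyltransferase known for acting on Hox genes, at 3.33 and 3.52.

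Of 13 tested genes of the retinoic acid pathway, a signal that acts on Hox genes in embryos, 1 fell and 0 rose by q, and 4 passed the raw p of the authors' deposited table, beside 3.17% of all tested rows by q and 13.7% by raw p. Aldh1a2, one of the retinaldehyde dehydrogenases that make retinoic acid, fell from 2.79 FPKM in WT to 1.89 in Fundc1-MKO. Its log2 ratio was -0.56 with q = 0.00338 in the authors' deposited table, and its intervals overlapped. Aldh1a1 and Rxra, the genes with the highest levels, were at 60.9 and 60.2 FPKM in WT and 68.4 and 67.4 in Fundc1-MKO. Of the 4 genes that passed the raw p, Aldh1a1 and Rxra were higher in Fundc1-MKO, and Aldh1a2 and Aldh1a3 were lower. The median log2 ratio over the 11 expressed genes was 0.03.

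Muscle samples hold several cell types, and in bulk RNA fewer cells of a type and less RNA per cell cannot be told apart. Marker genes of some of them differed between groups while no Hox gene was called. The marker counts that follow stand beside 3.17% of all tested rows by q and 13.7% by raw p. Of all tested symbols at 1 FPKM or more, 43.5% were at higher FPKM in Fundc1-MKO, so a lower value was the commoner direction. Of the 5 myofibre markers with a usable value 1 fell: Myh2, the fast IIa myosin heavy chain, was at 487 FPKM in WT and 384 in Fundc1-MKO, with q = 0.00338 by the authors' deposited table. Myh1 was at 670 and 620 FPKM and Myh7 at 197 and 181, while Mylpf and Pvalb were at higher FPKM in Fundc1-MKO, none of them called. All 8 macrophage markers were at lower FPKM in Fundc1-MKO, with a summed level of 173 in WT and 131 in Fundc1-MKO, and 6 fell. Of 10 fibroblast markers 7 were lower and 2 fell (sums 639 and 607), and all 6 tendon markers at 1 FPKM or more were lower and 2 fell (91.4 and 73.2 over all 7 markers). All 6 adipocyte markers were higher and 1 rose (908 and 1069), and 3 of 7 epidermal markers fell (12.04 and 2.05). The adipocyte sums rest mostly on Fabp4 (733 and 828 FPKM) and Cfd (91.2 and 139, with a WT interval of 0 to 214), neither of them called. Endothelial, mural, satellite cell and Schwann cell markers had 0 calls by q each, with 1, 1, 1 and 0 genes that passed the raw p of the authors' deposited table. The 6 bone and cartilage markers summed to 0.0889 and 0.0513 FPKM, with Ibsp at 0 in both groups. The part of any cell type in the Hox levels was not tested.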

How the data were processed

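Libraries from gastrocnemius of 4 mice were prepared, per the labels' protocols, with a NEBNext kit. Per the submitters' processing notes bcl2fastq, FastQC 0.11.3, TopHat2 2.0.14, Cufflinks 2.2.1 and mm10 were used, without roles. Per the file headers the table has Cuffdiff's layout. The authors deposited 1 FPKM per gene and group with an interval, a test statistic (a score), a p-value and a q-value, so the authors' q was used in place of a linear model on libraries. No source used here gives the annotation, settings or read totals.

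Members and lists were chosen with earlier results of these data known. For a symbol with several rows, the one with the higher mean FPKM was taken. The distance from the FPKM to the upper bound was taken as 2 SD to derive the SE of a log2 ratio, and the log2 ratio over this SE came within 1% of the authors' statistic in all 28 tested Hox rows. List medians use log2 of FPKM + 1. Named genes were all Hox members, each list gene with q under 0.05, and otherwise up to 4 genes of a list by level. A few genes that this rule names are not reported here, although counts and sums include them. Table starts were raised by 1, which gave the RefSeq start in 7559 of 10452 genes with the same end. Strands come from GENCODE M21 and start regions from RefSeq (GRCm38.p6). Python 3.11.15, pandas 2.3.3 and scipy 1.17.1 were used, and the SE calculation was tested on simulated data. P-values measure only the error that the authors' software assigned.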

Additional observations from a re-analysis of the deposited data

How the results depend on the processing

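The count of 15 expressed Hox genes became 27 at a minimum of 0.1 FPKM, and 27 when the lower bound of the authors' interval had to be above 0 in both groups. At 0.5 and 2 FPKM it was 17 and 13. Counting every gene named in a merged Hox row at 1 FPKM or more gave 18, an upper limit because the share of each gene in such a row is unknown. The count of 0 Hox genes with a call became 1 at q under 0.1 and 3 by the raw p (under 0.05) of the authors' deposited table. It stayed 0 with intervals apart and with the normal reading of the statistic. The share at higher FPKM in Fundc1-MKO ran from 58.8% to 80.0% and the median log2 ratio from 0.05 to 0.08 over other pseudocounts, minimums and scaling. Over the 8 lists of other genes the 1 call became 2 at q under 0.1 and 0 with intervals apart, both chosen after seeing the data. Fundc1 was lower under each setting tried (log2 ratio -2.25 to -2.01). No paired analysis was possible because the table holds 1 value per group, and leaving out single libraries was not possible for the same reason. Depth is unknown, so a value of 0 sets no limit here.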
